A study of Mus musculus with 23 samples.

Results

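The genes of coenzyme Q synthesis analysed here were *Pdss1*, *Pdss2*, *Coq2*, *Coq3*, *Coq4*, *Coq5*, *Coq6*, *Coq7* and *Coq9*. They were chosen by name, as 9 of the 37310 gene rows in each RNA-seq count file, together with the Zbtb11 ChIP-seq peaks at their promoters (2 kb upstream to 500 bases downstream of the start). All 9 passed the filter on low counts, as did 14346 genes in all, and 5 of the 7500 high-confidence Zbtb11 peaks lay at their promoters.

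In the mm9 build *Coq3* (chr4:21806820-21839309), *Coq4* (chr2:29643013-29653455), *Coq5* (chr5:115729675-115746981), *Coq6* (chr12:85702607-85714746), *Coq9* (chr8:97362221-97378795), *Pdss1* (chr2:22751042-22795786) and *Pdss2* (chr10:42941292-43184688) lie on the forward strand. *Coq2* (chr5:101083742-101104159) and *Coq7* (chr7:125653173-125676870) lie on the reverse strand.

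Coenzyme Q is a lipid of the mitochondrial inner membrane that carries electrons from complexes I and II, and from several other dehydrogenases, to complex III. Its head is a benzoquinone ring made from 4-hydroxybenzoate and its tail is a long chain of isoprene units built from the products of the mevalonate pathway. The tail is joined to the ring at the inner membrane, and the ring is then hydroxylated and methylated by enzymes that form a complex on the matrix side.

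RNA-seq was performed in E14 mouse embryonic stem cells (ESCs), a feeder-free line grown with LIF and serum, in 3 groups of 3 libraries at 48 h. The EtOH control and the *Zbtb11* KO were the same line, Zbtb11lox/lox with ERt2-Cre at the Rosa26 locus, given ethanol or 250 nM 4-hydroxytamoxifen (4OHT), which activates the Cre. The 4OHT control was Zbtb11WT/WT with a WT Rosa26 locus, given 250 nM 4OHT, so that both its genotype and its treatment set it apart from the EtOH control. The lox/lox line is a single homozygous clone, so effects of the clone and of the locus cannot be told apart where it is compared with the 4OHT control. ChIP-seq was performed with anti-Zbtb11 in 4 replicates of untreated Zbtb11WT/WT cells, with anti-FLAG in 3 replicates of Zbtb11FLAG/FLAG cells, in which the endogenous protein carries the tag, and with anti-FLAG in 2 replicates of untagged cells as the FLAG control.

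Each RNA-seq library held 14301457 to 23876604 counts on genes. The deletion itself could not be checked in the counts, because the annotation places the transcript that spans *Zbtb11* within the row of *Rpl24*, an abundant ribosomal protein gene. All 8 ESC markers, *Pou5f1*, *Sox2*, *Nanog* and *Zfp42* among them, were present, with a summed level of 4111 to 4749 CPM (counts scaled to the library's total) in the KO and 4219 to 4661 CPM in the EtOH control. In this comparison 0 of the 8 passed the test, 0 had an unadjusted p under 0.05 and DESeq2 called 0. Summed levels in the KO and the EtOH control were 4.61 to 6.81 and 4.90 to 7.09 CPM for 4 endoderm markers, 2.91 to 3.59 and 3.47 to 3.93 CPM for 3 mesoderm markers, 38.1 to 49.8 and 38.4 to 46.5 CPM for the 2 neural markers with a row used here, and 17.9 to 26.4 and 16.0 to 22.7 CPM for 4 fibroblast markers.

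*Coq3*, *Pdss1* and *Coq4* had strong Zbtb11 peaks at the promoter, and *Pdss2* and *Coq6* weaker ones. Sequence upstream of *Coq3*, *Pdss1* and *Pdss2* is shown, on the strand of the gene and in the mm9 build, because the results turn on these peaks. The first line is the 300 bases before the start of *Coq3*, chr4:21806520-21806819, and the second those before the start of *Pdss1*, chr2:22750742-22751041. The third is a 30-base stretch inside the first exon of *Pdss1*, chr2:22751063-22751092, and the fourth runs from 340 to 41 bases before the start of *Pdss2*, chr10:42940952-42941251. Capitals mark CCGGAAG, the core bound by ETS factors such as GABP (NRF-2), found on either strand.
Coq3: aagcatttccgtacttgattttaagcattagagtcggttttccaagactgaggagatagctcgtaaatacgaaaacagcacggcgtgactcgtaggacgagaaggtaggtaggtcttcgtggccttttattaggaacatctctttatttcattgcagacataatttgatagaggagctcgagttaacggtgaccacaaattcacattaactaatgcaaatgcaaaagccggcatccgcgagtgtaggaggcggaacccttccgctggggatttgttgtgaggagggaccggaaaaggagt
Pdss1: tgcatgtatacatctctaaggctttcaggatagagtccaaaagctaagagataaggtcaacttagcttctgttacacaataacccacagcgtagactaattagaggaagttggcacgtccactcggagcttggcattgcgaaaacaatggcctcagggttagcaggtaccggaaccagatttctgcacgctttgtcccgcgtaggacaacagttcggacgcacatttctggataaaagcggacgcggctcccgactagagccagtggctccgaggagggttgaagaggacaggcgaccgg
Pdss1 first exon: cgcgCTTCCGGtgcccagCTTCCGGctccg
Pdss2: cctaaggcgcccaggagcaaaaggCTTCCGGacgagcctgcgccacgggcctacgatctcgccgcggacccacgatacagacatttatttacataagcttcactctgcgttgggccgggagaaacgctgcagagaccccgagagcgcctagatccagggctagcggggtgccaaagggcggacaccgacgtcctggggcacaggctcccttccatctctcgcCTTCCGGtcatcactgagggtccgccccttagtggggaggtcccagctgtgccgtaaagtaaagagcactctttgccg

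No CCGGAAG stood in the 300 bases before *Coq3* or *Pdss1*. Within 500 bases on each side of the start, *Pdss1* had 2 matches, 25 and 39 bases downstream, *Pdss2* had 2, 118 and 316 bases upstream, *Coq6* had 1, 330 bases downstream, and the other 6 genes had 0. The start here is the outermost annotated one. The protein-coding starts of *Coq4*, and some of those of *Coq2*, *Pdss1* and *Pdss2*, lay outside the window. The same window held the motif in 26.4% of all 14346 tested genes. The palindrome bound by NRF-1 was in the window of 0 of the 9 genes and of 2.53% of tested genes. In the central 300 bases of the peak, CCGGAAG was found at *Pdss1*, *Pdss2* and *Coq6* and not at *Coq3* or *Coq4*. It was found in 29.4% of the 7500 peaks and in 47.8% of the 857 Zbtb11-high peaks, the class of *Coq3*, *Coq4* and *Pdss1* described below. These are exact matches of letters in the windows named, not sites of binding, and shorter or altered forms of the motif were not counted.

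Of the 9 genes, 5 had a high-confidence peak at the promoter (*Pdss1*, *Pdss2*, *Coq3*, *Coq4* and *Coq6*), against 28.1% of tested genes. A peak of the list made with the Zbtb11 antibody, and one of the FLAG-Zbtb11 list, lay at the promoters of the same 5 genes, against 33.0% and 33.5% of tested genes. The FLAG control list had 0 peaks at the 9 promoters (0.216% of tested genes had one). *Coq2*, *Coq5*, *Coq7* and *Coq9* had no peak of any list at the promoter, and none of the 7500 lay within 5 kb of their starts. Of the 5 peaks, 3 (*Coq4*, *Pdss1* and *Coq3*) were Zbtb11-high, with a mean coverage above 308.9, which is the upper quartile of the 7500 peaks plus 1.5 interquartile ranges. Such a peak lay at the promoter of 5.69% of tested genes.

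At *Coq4*, a protein of the synthesis complex, the peak (chr2:29642681-29643881) had a normalised coverage of 625.8, 925.0, 609.7 and 1146.0 in the Zbtb11 libraries and of 872.3, 941.6 and 527.3 in the FLAG-Zbtb11 libraries. At *Pdss1*, the catalytic subunit of the synthase that makes the isoprene tail, the peak (chr2:22750337-22751537) had 552.4, 790.3, 539.5 and 989.9, and then 804.2, 761.8 and 415.8. At *Coq3*, the O-methyltransferase of the ring, the peak (chr4:21806186-21807386) had 422.4, 662.1, 490.4 and 888.8, and then 509.7, 573.2 and 378.3. All 7 libraries gave the same order, *Coq4* above *Pdss1* above *Coq3*, although the spread between libraries was wider than the steps between the genes: the means ± SD over the 4 Zbtb11 libraries were 827 ± 258, 718 ± 215 and 616 ± 208. By this mean the peaks ranked 76, 163 and 321 of the 7500, and by the mean of the 3 FLAG-Zbtb11 libraries 44, 113 and 391.

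The peak at *Pdss2*, the partner subunit of Pdss1 (chr10:42940478-42941678), had a coverage of 106 ± 11.4 (SD, n = 4) with the Zbtb11 antibody and 129 ± 8.66 (SD, n = 3) with FLAG-Zbtb11. It ranked 2575 by the first, in the upper part of the list, whose median was 71.3. The peak at *Coq6*, a ring hydroxylase (chr12:85702402-85703602), had 29.0 ± 15.7 (SD, n = 4) and 44.9 ± 6.0 (SD, n = 3) and ranked 6540, below the median. Both were under the Zbtb11-high limit in each of the 7 libraries, and the peaks of *Coq4*, *Pdss1* and *Coq3* were above it in each. The limit was set on the mean of the 4 Zbtb11 libraries, and none was set for single or FLAG-Zbtb11 libraries.

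**Figure D1:**
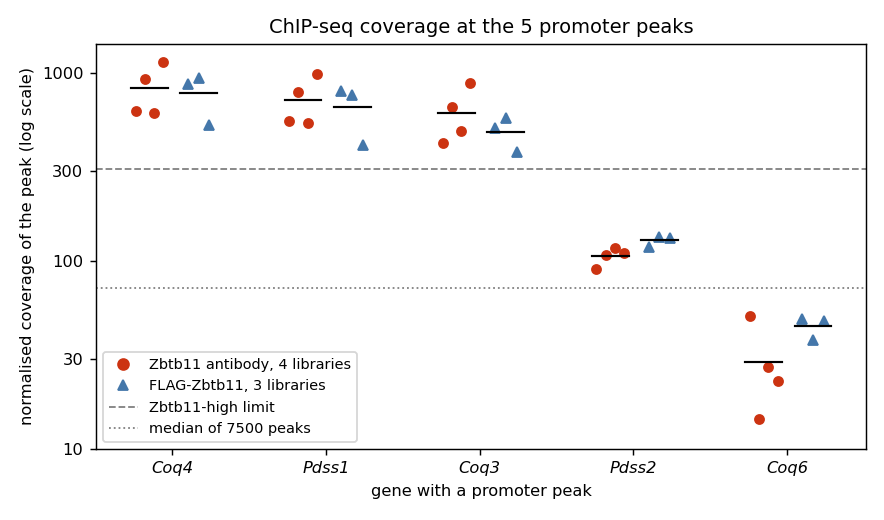
Normalised ChIP-seq coverage (vertical axis, log scale, the authors' units) of the promoter peaks of 5 genes (horizontal axis). Points are libraries (circles, 4 with the Zbtb11 antibody, and triangles, 3 of FLAG-Zbtb11), bars their means, the dashed line the Zbtb11-high limit of 308.9 and the dotted line the median of 7500 peaks, 71.3. Every point of *Coq4*, *Pdss1* and *Coq3* lies above the dashed line and every point of *Pdss2* and *Coq6* below it.

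The centre of the *Coq3* peak lay 34 bases upstream of the only protein-coding start, in sequence with no annotated exon, and no other gene overlapped *Coq3* or started within 1 kb of it on the other strand. The centre of the *Pdss1* peak lay 105 bases upstream of the start, in an exon of the pseudogene A130006I12Rik, which runs on the opposite strand from a start 214 bases inside *Pdss1*. The centre of the *Pdss2* peak lay 214 bases upstream of the start. At *Coq6* it lay 395 bases downstream of the outermost start, and *Fam161b* began 176 bases from that start on the other strand, so that the peak counts for both genes. *Coq9*, which had no peak, also shares its promoter, with *Ciapin1*, whose start is 37 bases away.

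At *Coq4* the centre lay 268 bases downstream of the outermost start, that of a transcript annotated for nonsense-mediated decay, and 498 bases upstream of the nearest protein-coding start. *Trub2*, the gene of a pseudouridine synthase, runs away from *Coq4* on the other strand, and its nearest protein-coding start lay 113 bases from the centre. The peak therefore counts for both genes.

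**Figure D2:**
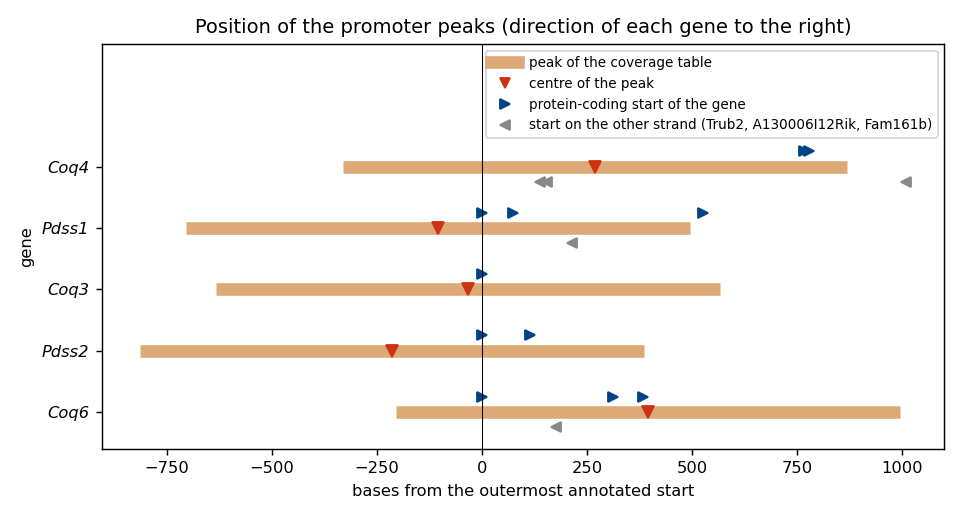
Position of the 5 promoter peaks, in bases from the outermost annotated start of each gene (horizontal axis, the gene running to the right). Bars are the peaks, red triangles their centres, blue arrows protein-coding starts of the gene and grey arrows starts on the other strand. The centre is 34 bases upstream of the start at *Coq3*, and at *Coq4* it is nearer to a start of *Trub2* than to a protein-coding start of *Coq4*.

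In the EtOH control the 9 genes spanned about an order of magnitude in level per length. On the scale of CPM per kb of exon, *Coq5*, the C-methyltransferase of the ring, was highest at 20.6 ± 1.92 (SD, n = 3), followed by *Coq2*, the prenyltransferase that joins tail and ring, at 14.9 ± 2.12. *Coq9*, a lipid-binding protein that presents the substrate to Coq7, had 10.2 ± 0.613, and *Coq6* had 9.23 ± 0.227. The ranges of neighbours in this upper part of the order did not overlap. *Coq3* had 4.89 ± 0.285, *Coq7*, the hydroxylase of the penultimate step, 4.25 ± 0.309, *Pdss1* 3.93 ± 1.14, *Coq4* 3.39 ± 0.753 and *Pdss2* 2.29 ± 0.347. The range of *Pdss1* overlapped those of its neighbours *Coq7* and *Coq4*, which do not differ from it beyond their spread.

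**Figure D3:**
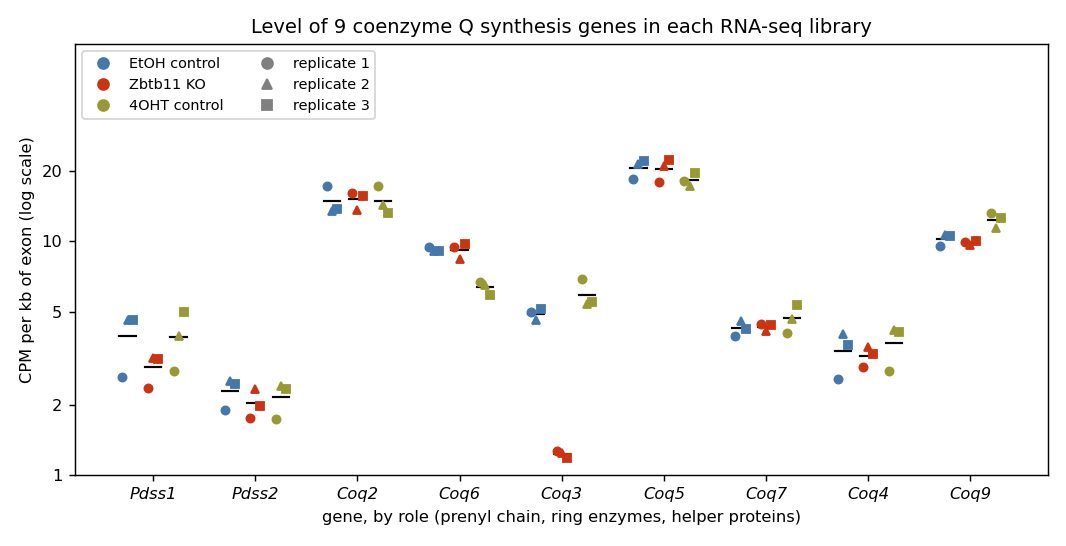
Level of each gene in CPM per kb of exon (vertical axis, log scale) in the 9 RNA-seq libraries, by gene (horizontal axis). Colours are groups, shapes are replicate numbers and bars are the means of 3 libraries. The 3 KO libraries of *Coq3* sit between 1.18 and 1.26, below every library of both controls, and those of the other genes lie in or near the range of the EtOH control.

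The *Zbtb11* KO was compared with the EtOH control to ask which genes change when Zbtb11 is lost. Of the 9 genes 1 passed the test, *Coq3*, which fell to 25.1% of the EtOH level. The test called 0.843% of all 14346 genes lower and 0.0558% higher. The 9 genes had a median log2 fold change of -0.05 and all tested genes one of 0.00, and the 8 genes other than *Coq3* lay between -0.44 and 0.03.

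*Coq3* was at 14.9, 13.7 and 15.4 CPM in replicates 1 to 3 of the EtOH control, at 3.78, 3.73 and 3.53 CPM in the KO and at 20.7, 16.1 and 16.4 CPM in the 4OHT control. The raw counts behind these levels were 285, 321 and 333 in the EtOH control, 65, 77 and 71 in the KO and 302, 356 and 369 in the 4OHT control. All 3 KO libraries were below all 6 others, and no group overlapped another. Of all tested genes, the KO libraries were all below those of the EtOH control in 4.02% and all below those of the 4OHT control in 11.8%. The 4OHT control was above the EtOH control without overlap in 11.2%. The log2 fold change in the KO was -1.99 ± 0.14 (SE, n = 3, 95% interval -2.30 to -1.68), with an edgeR adjusted p of 0.000116. By replicate number, the log2 ratio of KO to EtOH control was -1.95, -1.85 and -2.10. Among the 9 genes *Coq3* moved from the fifth highest level per length in the EtOH control to the lowest in the KO, 1.23 ± 0.0455 CPM per kb (SD, n = 3).

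The call was near the threshold when replicate 2 or replicate 3 was left out. Without replicate 2 the change was -2.05 and the edgeR adjusted p was 0.0541, so *Coq3* did not pass. In that fit 1 of the 9 genes had an unadjusted p under 0.05, and 13 genes were called in all. Without replicate 3 the change was -1.93 and *Coq3* passed with an edgeR adjusted p of 0.0456, where 21 genes were called in all. Without replicate 1, which was taken to be the replicate the study left out for its final list, the change was -2.003 with an edgeR adjusted p of 4.3e-06. In bulk RNA, fewer cells with a transcript and less of it in each cell cannot be told apart.

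*Pdss1* was at 11.1, 19.5 and 19.6 CPM in replicates 1 to 3 of the EtOH control, at 10.0, 13.5 and 13.4 CPM in the KO and at 11.8, 16.7 and 21.2 CPM in the 4OHT control. The first replicate was the lowest in each group, and the KO and EtOH libraries overlapped. The KO was lower in each numbered pair, with log2 ratios of -0.15, -0.53 and -0.55. The log2 fold change was -0.44 ± 0.27 (SE, n = 3) with an edgeR adjusted p of 1, at which it did not pass. With the replicate number as a block it was -0.43 ± 0.10 with an edgeR adjusted p of 0.0187, where the fit called 2.25% of tested genes in either direction, and without replicate 1 it was -0.54 ± 0.12 with an edgeR adjusted p of 0.063, where 1.5% were called. The block without replicate 1 gave -0.54 and an edgeR adjusted p of 0.00538, with 2.27% called. *Pdss1* was the second of the 9 genes called under the block, and *Coq3* the first, with an edgeR adjusted p of 1.46e-10.

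*Coq4* was at 8.71, 13.7 and 12.2 CPM in the EtOH control and at 9.84, 11.98 and 11.2 CPM in the KO. The groups overlapped, the log2 fold change was -0.07 ± 0.21 (SE, n = 3, 95% interval -0.53 to 0.40) and it did not pass under the block either. *Trub2*, which shares the peak, had 34.8, 40.9 and 39.9 CPM in the EtOH control and 15.02, 20.4 and 19.97 CPM in the KO, with a log2 fold change of -1.06 ± 0.18 (SE, n = 3) and an edgeR adjusted p of 0.0266. The exons of *Coq4* and *Trub2* overlap on opposite strands, and the strand setting of the counting is not given in the sources used here. The difference between the log2 levels of *Coq3* and *Coq4* in a library was -1.66 to -1.36 in the KO and 0.00 to 0.76 in the EtOH control, and that between *Coq3* and *Pdss1* was -1.89 to -1.38 and -0.50 to 0.42. An exact permutation test, two-sided and unpaired, gave p = 0.1 for each, the smallest p that 3 against 3 libraries allow. It ignored the replicate numbers, and *Coq3* was set against these genes after it had been called, so no conclusion is drawn from it.

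The 6 genes without a Zbtb11-high peak at the promoter did not pass the test. The log2 fold changes were -0.18 ± 0.18 (SE, n = 3) for *Pdss2*, 0.03 ± 0.14 for *Coq2*, -0.01 ± 0.09 for *Coq6*, -0.01 ± 0.11 for *Coq5*, 0.02 ± 0.12 for *Coq7* and -0.05 ± 0.09 for *Coq9*. Levels ranged from 11.3 to 15.1 CPM in the EtOH control and from 10.5 to 13.9 CPM in the KO for *Pdss2*, from 35.5 to 45.5 and from 35.9 to 42.3 CPM for *Coq2*, and from 37.5 to 44.9 and from 36.6 to 45.5 CPM for *Coq5*. For *Coq7* they ranged from 15.8 to 18.3 and from 16.5 to 17.7 CPM, and for *Coq9* from 29.0 to 32.5 and from 29.4 to 30.6 CPM. The widest of the 95% intervals, that of *Pdss2*, ran from -0.58 to 0.22, and the others stayed within -0.28 and 0.33. The KO and EtOH libraries overlapped for all 6.

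**Figure D4:**
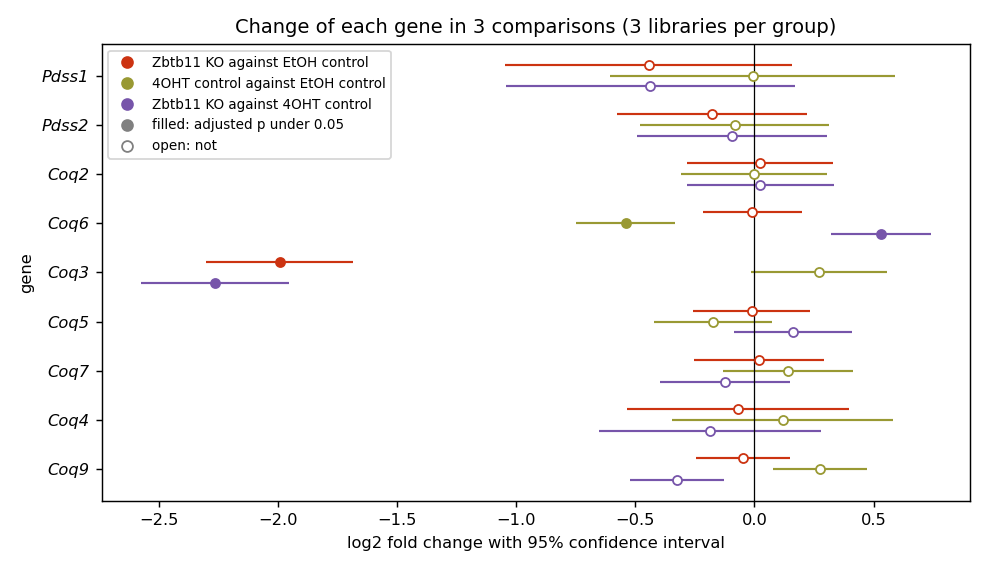
Log2 fold change (horizontal axis) with its 95% interval for each gene (vertical axis) in 3 comparisons, 3 libraries per group. Filled points passed the edgeR test at an adjusted p under 0.05. *Coq3* stands at -1.99 and -2.26 in the comparisons with the KO, and *Coq6* at -0.54 and 0.53 in those with the 4OHT control.

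Set against other genes by peak, 12.4% of the 817 tested genes with a Zbtb11-high promoter peak were called lower in the KO, and 0.979% were called higher. Among 269 other genes whose promoter peak had a coverage between those of *Coq3* and *Coq4*, 57 (21.2%) were called lower, and the median log2 fold change was -0.18, with quartiles of -0.70 and 0.04. *Coq3* lay below the lower quartile of these genes, and *Pdss1* and *Coq4* between the quartiles. Among the 3209 tested genes with a weaker peak, as at *Pdss2* and *Coq6*, 0.187% were called lower, and among the 10320 without a peak 0.136%.

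**Figure D5:**
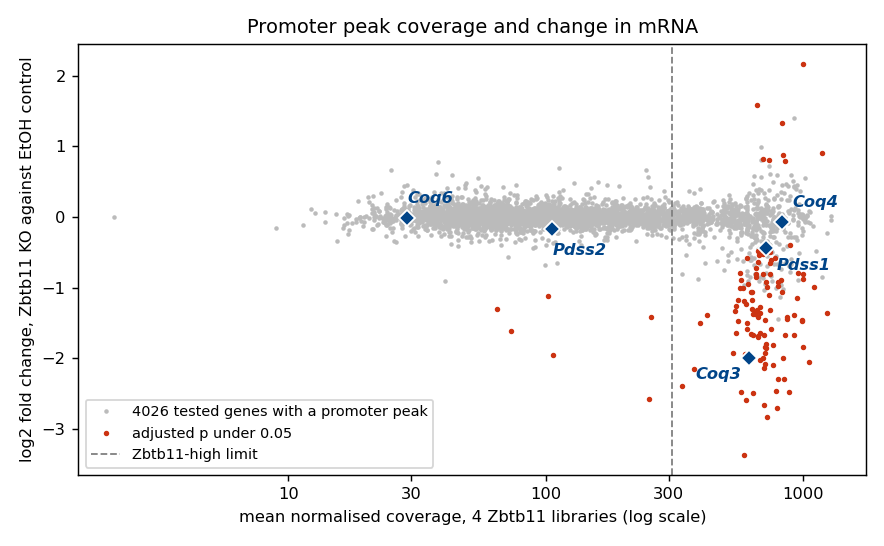
Mean coverage of the promoter peak over the 4 Zbtb11 libraries (horizontal axis, log scale) and log2 fold change between *Zbtb11* KO and EtOH control (vertical axis) for 4026 tested genes with a high-confidence promoter peak. Grey points are genes, red points those with an adjusted p under 0.05, blue diamonds the 5 genes of coenzyme Q synthesis, and the dashed line the Zbtb11-high limit. *Coq3*, *Pdss1* and *Coq4* stand close together in coverage and apart in change, at -1.99, -0.44 and -0.07.

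The genes whose pattern over the 9 libraries was most like that of *Coq3*, by the root mean square difference of log2 CPM centred on each gene's mean, were *Wdr11* (0.101), *Acbd6* (0.149), *Nkap* (0.151), *Arl6ip4* (0.155) and *Them4* (0.162), where the median over all tested genes was 1.03. Their log2 fold changes in the KO were between -2.48 and -1.82, a closeness to *Coq3* that follows from choosing them by pattern over the same libraries. *Wdr11* had a promoter peak with a coverage of 835, *Acbd6* one of 761, *Nkap* one of 592 and *Them4* one of 574, all above the Zbtb11-high limit, and *Arl6ip4* had no high-confidence peak at its promoter. Such peaks were common among lowered genes: of the 121 genes called lower in the KO, 101 had a Zbtb11-high promoter peak.

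The 4OHT control was compared with the EtOH control as the study's control for 4OHT, and the test called 2.01% of all genes lower and 2.06% higher. Of the 9 genes 1 passed, *Coq6*, which was lower in the 4OHT control. It was at 29.8, 28.6 and 28.6 CPM in the EtOH control, at 29.6, 26.3 and 30.6 CPM in the KO and at 20.9, 20.3 and 18.6 CPM in the 4OHT control. All 3 libraries of the 4OHT control were below the 6 libraries of the lox/lox line (10.5% of tested genes were lower than the EtOH control without overlap, and 11.1% were higher in the KO than in the 4OHT control), with a log2 fold change against the EtOH control of -0.54 ± 0.09 (SE, n = 3) and an edgeR adjusted p of 0.0162. It passed without replicate 1 (edgeR adjusted p 0.00377, 17.1% of genes called), and not without replicate 2 (0.425), without replicate 3 (0.323) or with only the compared groups in the fit (0.0561), where the log2 fold changes were -0.57, -0.50 and -0.54. With the block, which called 33.6% of all genes here, *Coq3* (0.26), *Coq9* (0.27) and *Coq5* (-0.18) passed as well, with edgeR adjusted p values of 0.0378, 0.00641 and 0.0486. With the block and without replicate 1 the fit called 27.6% of all genes and 2 of the 9, *Coq5* and *Coq6*. *Coq9* was at 29.0, 32.5 and 32.1 CPM in the EtOH control and at 40.2, 34.7 and 38.3 CPM in the 4OHT control, and these groups did not overlap (11.2% of tested genes were higher without overlap). Its log2 fold change of 0.27 ± 0.09 (SE, n = 3) had an edgeR adjusted p of 0.13 without the block. Marker levels also differed between these groups. The summed level of the 8 ESC markers was 4751 to 5177 CPM in the 4OHT control, above the EtOH range. Of these edgeR called 0 (3 at an unadjusted p under 0.05), DESeq2 called 1, *Nanog*, and the block called 4 higher and 1, *Nanog* (-0.36), lower. The summed level of the 3 mesoderm markers was 4.67 to 5.02 CPM, also above the EtOH range. That of the 4 fibroblast markers was 16.0 to 23.0 CPM, close to the EtOH range, while its members went both ways: *Col1a2* was called lower (-2.002, edgeR adjusted p 0.00506) and *Thy1* had 0.59 and was called higher with the block. The part of these in the values of *Coq6* and *Coq9* was not tested.

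The *Zbtb11* KO was also compared with the 4OHT control, where both received 4OHT and the lines differ. It shares the KO libraries with the first comparison and the control libraries with the second. The test called 3.72% of all genes lower and 2.73% higher, and 2 of the 9: *Coq3* fell by 2.26 ± 0.14 on the log2 scale (SE, n = 3, edgeR adjusted p 2.29e-05) and *Coq6* rose by 0.53 ± 0.09 (edgeR adjusted p 0.00978). Against the EtOH control the KO value of *Coq6* was -0.01, with a 95% interval of -0.22 to 0.20. *Coq6* did not pass without replicate 2 (0.61, edgeR adjusted p 0.231) or without replicate 3 (0.44, edgeR adjusted p 0.288), and *Coq3* passed without each. *Coq9* had -0.32 ± 0.09 and did not pass (edgeR adjusted p 0.0639), although DESeq2 called it (-0.32, DESeq2 adjusted p 0.0154), nor did *Pdss1* at -0.44 ± 0.27 (0.443). Both passed with the block, which called 34.9% of all genes, at edgeR adjusted p values of 0.0017 and 0.00293, and without replicate 1, where 18.7% were called, at 0.0338 and 0.0153. The block without replicate 1 called 29.5% of all genes and 5 of the 9, these genes and *Coq5* (0.23, edgeR adjusted p 0.0197). In the main fit of this comparison *Coq2*, *Coq4*, *Coq5*, *Coq7* and *Pdss2* lay between -0.19 and 0.16. Among the markers, the mesoderm gene *Eomes* was called lower (-0.74, edgeR adjusted p 0.0287) and *Col1a2* higher (1.96, edgeR adjusted p 0.0026), and of the 8 ESC markers the test called 0 (3 at an unadjusted p under 0.05, 0 by DESeq2) and the block 6 lower and 1 higher. Of the 4 fibroblast markers 3 were tested, and the block called 2 higher and 1 lower. The part of these markers in the values of the 9 genes was not tested.

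Genes that act around the pathway were followed in 3 lists. Of 12 kinases, binding proteins and helpers of coenzyme Q synthesis, which include *Adck3* (Coq8a) and *Coq10b*, 12 were tested and 0 were called between KO and EtOH control. edgeR gave 0 with an unadjusted p under 0.05 and DESeq2 called 0, and the log2 fold changes were between -0.06 and 0.23, with a median of 0.04. Of 10 enzymes of isoprenoid metabolism, *Fdft1* of the sterol branch among them, 9 had a row used here and were tested. Of these 0 were called (0 at an unadjusted p under 0.05, 0 by DESeq2). All 9 values were below 0, between -0.23 and -0.04, with a median log2 fold change of -0.09 (-0.0006 over all tested genes). Whether they moved together was not tested. In the other comparisons the test called 0 genes of these 2 lists. Between KO and 4OHT control the block, which called 34.9% of all genes, called 4 enzymes lower and 1 gene of the first list higher. Between 4OHT control and EtOH control it called 33.6% of all genes, with 1 enzyme higher and 1 gene of the first list lower.

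Of 11 proteins that reduce coenzyme Q apart from complex I, or act in such enzymes, 9 were tested and 0 were called by edgeR, with 1 at an unadjusted p under 0.05. This was *Dhodh*, the pyrimidine synthesis enzyme that passes electrons to coenzyme Q. It was at 37.5, 40.4 and 40.1 CPM in the EtOH control, at 30.2, 31.1 and 30.8 CPM in the KO and at 49.7, 51.2 and 50.4 CPM in the 4OHT control, so that no group overlapped another (4.02% of tested genes were lower in the KO than in the EtOH control without overlap, 11.2% higher in the 4OHT control than in the EtOH control and 11.8% lower in the KO than in the 4OHT control). Its log2 fold change in the KO was -0.36 ± 0.07 (SE, n = 3) with an edgeR adjusted p of 0.0677, and with the block it was -0.36 ± 0.06 and passed, with an edgeR adjusted p of 0.000725. DESeq2 called it too. *Dhodh* was higher in the 4OHT control than in the EtOH control, by 0.36 ± 0.07 (edgeR adjusted p 0.0262), and lower in the KO than in the 4OHT control, by -0.72 ± 0.07 (edgeR adjusted p 0.000418). *Sdha*, the flavoprotein of complex II, was the other gene of this list that passed in the last comparison, at -0.26 ± 0.06 (edgeR adjusted p 0.0474). The *Sdha*, *Sdhb*, *Sdhc* and *Sdhd* subunits of complex II lay between -0.06 and 0.03 between KO and EtOH control.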

How the data were processed

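RNA-seq counts per gene were used as deposited by the authors, who trimmed reads, aligned them with STAR and counted them per gene with HTSeq. ChIP-seq coverage (signal) is as deposited, counted over consensus peaks of reads aligned to mm9 with Bowtie 1.1.2 (version from the submitters' processing notes) and normalised between libraries with DiffBind, and the authors' MACS2 peak lists pool replicates. Input libraries were not analysed here. Peak coordinates are as in the deposited coverage table.

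Counts were fitted with edgeR 4.0.16 under R 4.3.3 (TMM scaling, two-sided quasi-likelihood F test) across the 9 libraries. A gene entered where 3 libraries (2 without replicate 1) exceeded 1 CPM. Benjamini-Hochberg adjustment covered every gene tested, with 0.05 as threshold, and SEs are the log2 fold change divided by the root of F. DESeq2 1.42.0 was an alternative. After subtraction of group means, libraries with the same replicate number correlated at 0.43 to 0.82, and those with different numbers at -0.753 to 0.526. These ranges overlap, so they do not settle whether the numbers pair the libraries. The main fit had no block, and a blocked fit is reported beside any call of the 9 genes that it altered. The study's methods call the 3 RNA-seq replicates of each group biological. The p values of the main fit rest on the spread between them, estimated over the 3 groups together. Without a block this spread includes differences between replicate numbers. Overlaps (at least 1 base) were counted with bedtools 2.31.1. Gene models are GENCODE vM1. Near-identical coding sequence (at least 100 bases, at least 95%, blastn 2.17.0) was found elsewhere only for *Coq2*, at Gm6728. The fit and the motif search were tested on simulated data. All 9 genes are named, with the 5 genes nearest in pattern to a called one, neighbours whose starts lie within 1 kb, and from each list the called genes and a few others. *Trub2*, which shares a peak with *Coq4*, was named after its values were seen. Genes and lists were chosen with earlier results of these data known.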

Additional observations from a re-analysis of the deposited data

How the results depend on the processing

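The number of the 9 genes called between *Zbtb11* KO and EtOH control was 1, and it was 2 with the replicate block, with or without replicate 1, and 0 to 1 when a replicate was left out. Of all genes 129 were called, 323 with the block, 322 with the block without replicate 1, and 13 to 212 when a replicate was left out. Between 4OHT control and EtOH control the number was 1, and it was 0 with only the compared groups, 4 with the block, 2 with the block without replicate 1 and 0 to 1 with a replicate left out. All genes called were 583, and 1187 by DESeq2, 171 with only these groups, 4816 with the block, 3914 with the block without replicate 1 and 13 to 2420 with a replicate left out. Between KO and 4OHT control the number was 2, and it was 3 by DESeq2 (with *Coq9*), 4 with the block, 5 with the block without replicate 1 and 1 to 4 with a replicate left out. All genes called were 925, and 1469 by DESeq2, 570 with only these groups, 5010 with the block, 4174 with the block without replicate 1 and 82 to 2645 with a replicate left out. A replicate left out leaves fewer samples, and for the other settings the cause was not tested.

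Near 0, directions turned without a call. Between KO and EtOH control, library sizes without TMM gave *Coq5* 0.026 and *Coq6* 0.028, and the block without replicate 1 gave *Coq7* -0.053. With a replicate left out, *Coq2* ran from -0.051 to 0.0997, *Coq4* from -0.161 to 0.0075, *Coq6* from -0.064 to 0.041 and *Coq7* from -0.052 to 0.104. Between 4OHT control and EtOH control, *Coq2* had 0.0086 without TMM, 0.00068 with the block and 0.0097 with the block without replicate 1, and *Pdss1* had 0.0019 without TMM. With a replicate left out, *Coq2* ran from -0.036 to 0.0297 and *Pdss1* from -0.09995 to 0.111. Between KO and 4OHT control *Coq2* ran from -0.081 to 0.0902.

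The number of genes with a promoter peak stayed at 5 with promoters of 1 or 5 kb on each side, with either full peak list, with at least 0.5 of the peak inside and with all transcript starts, and it was 3 for Zbtb11-high peaks only. With the FLAG-Zbtb11 libraries the ranks were 44 for *Coq4*, 113 for *Pdss1*, 1865 for *Pdss2* and 5196 for *Coq6*, and the mean of all 7 libraries gave 142 for *Pdss1*. With a Zbtb11 library left out the ranks were 69 to 86 for *Coq4*, 161 to 180 for *Pdss1*, 297 to 372 for *Coq3*, 2445 to 2658 for *Pdss2* and 6236 to 6947 for *Coq6*. The lowest counts among these genes were those of *Coq3* in the KO, 65 to 77 in a library, after 285 to 333 in the EtOH control. The SE of its change between these groups was 0.14, below those of *Pdss1* (0.27), *Coq4* (0.21) and *Pdss2* (0.18).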
